A study of Mus musculus with 64 samples.

Results

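Transcripts of 40 heat shock and unfolded protein response genes were followed in poly(A)-selected RNA of omental adipose tissue, liver and skeletal muscle from mice with and without a body-wide inactivation of Myc, a transcription factor of cell growth. The 40 genes were chosen by symbol from 36332 gene identifiers in the deposited table and comprised 13 cytosolic genes, 5 mitochondrial genes and 22 genes of the endoplasmic reticulum (ER) and the linked integrated stress response. All 40 were found, and all 40 passed the filter on low values in each tissue. The MycKO animals (KO) came from a cross of mice with the allele Gt(ROSA)26Sortm1(cre/ERT2)Tyj, a tamoxifen-activated Cre in the ubiquitously active ROSA26 locus, and mice labelled B6.129-B6.129S6-Myctm2Fwa/Mmjax, which carry a floxed Myc gene. Control animals (WT) were labelled C57/B6, so genotype, Cre and the animals' breeding history cannot be told apart. Each group, WT included, is labelled as given 5 daily injections of tamoxifen at 75 mg/kg at weaning, once the mice weighed at least 15 g. Animals were sampled at 5 and at 20 months of age, and library codes below start with W5, K5, W18 or K18, where 18 stands in codes of animals labelled as 20 months old. In adipose tissue and in liver there were 6 WT and 6 KO libraries at 5 months and 5 and 5 at 20 months. In muscle there were 6 WT and 4 KO libraries at 5 months and 5 and 5 at 20 months. Nothing in the labels says that equal numbers in library codes mark a single animal or that libraries of a group came from separate cages or days, so the p-values below measure the spread between these libraries.

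Heat shock proteins are chaperones that keep newly made or damaged proteins from aggregating. In the cytosol the transcription factor HSF1 switches on inducible chaperones such as Hspa1a and Hspa1b (Hsp70), Dnajb1 (Hsp40), Hspb1 and Cryab (small heat shock proteins) and the co-chaperone Bag3 when proteins misfold, while Hspa8 and Hsp90ab1 serve in unstressed cells. Mitochondria fold imported proteins with the Hspd1/Hspe1 chaperonin (Hsp60 and Hsp10) and Hspa9 (mortalin), and degrade misfolded ones with the proteases Lonp1 and Clpp. In the ER, an excess of unfolded proteins activates ATF6, IRE1 (which splices Xbp1) and PERK (which leads to translation of Atf4). ATF6 and XBP1 raise chaperones and folding enzymes such as Hspa5 (BiP), Hsp90b1, Calr and the Pdia disulfide isomerases, and ATF4 raises Asns, Chac1, Trib3 and Ddit3 in response to ER stress or lack of amino acids.

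Short motifs of the regulators named above are shown here for members whose promoters hold them, which not every member's did. RefSeq promoter windows of 300 bases (250 before and 50 after the annotated start, assembly GRCm38.p6) matched 31 of the 40 genes, namely 8 cytosolic, 4 mitochondrial and 19 ER genes. A heat shock element of 2 units, GAANNTTC, was present on either strand in 7.86% of 32851 mouse promoter windows, and in 7 of the 8 cytosolic windows (Bag3, Dnaja1, Hspa1a, Hspa1b, Hspb1, Hspb8 and Hsph1). It was also in the windows of Hspd1, Hspe1 and Asns. Stretches of 30 bases, 5′ to 3′ on the gene's strand with the match in capitals, read as follows for Hspa1a on the minus strand at chr17:34972242-34972271, for Hspb1 on the plus strand at chr5:135887791-135887820 and for Dnaja1 on the plus strand at chr4:40722333-40722362.
Hspa1a: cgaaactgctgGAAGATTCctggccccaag
Hspb1: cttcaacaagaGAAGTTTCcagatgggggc
Dnaja1: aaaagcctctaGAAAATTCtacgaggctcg
The Hspa1b stretch at chr17:34959324-34959353 was letter for letter that of Hspa1a. The 300-base windows of Hspa1a and Hspa1b were the same at 296 positions, and 47.1% of the 100-base stretches of the Hspa1a transcript also occurred in the Hspa1b transcript, so how reads were divided between this pair is uncertain.

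Hspd1 and Hspe1 lie head to head on chromosome 1, where their annotated spans overlap. A stretch upstream of the start used for each gene's window held an element of 3 units, GAANNTTCNNGAA (0.603% of windows). This stretch lies within the annotated span of Hspd1 and reads as follows on the Hspe1 strand at chr1:55088051-55088080.
Hspe1: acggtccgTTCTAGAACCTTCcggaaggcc
The 3-unit element contains the 2-unit element, and Hsph1 was the other member with it. The ER stress element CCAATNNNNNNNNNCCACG occurred in 39 windows in all (0.119%). Of the 19 matched ER genes, 7 held it (Calr, Canx, Creld2, Dnajc3, Hsp90b1, Hspa5 and Pdia6), against 0 of the 8 cytosolic and 0 of the 4 mitochondrial genes. It stood on the plus strand at chr2:34772020-34772049 in Hspa5, on the minus strand at chr8:84847069-84847098 in Calr (where the capitals are the reverse complement of the element), and on the plus strand at chr12:17266486-17266515 in Pdia6.
Hspa5: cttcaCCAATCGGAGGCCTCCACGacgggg
Calr: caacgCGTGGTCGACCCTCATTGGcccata
Pdia6: agagaCCAATGAAAGGCGGCCACGgcgtgg
The element bound by C/EBP-ATF4 dimers, searched as TGATGNAA, was in 3.97% of windows and in 4 ER members, Asns, Chac1, Herpud1 and Trib3. It stood on the minus strand at chr6:7693214-7693243 in Asns, where it overlaps the 2-unit heat shock match, and on the plus strand at chr2:119351038-119351067 in Chac1, where the capitals are its reverse complement.
Asns: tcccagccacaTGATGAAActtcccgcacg
Chac1: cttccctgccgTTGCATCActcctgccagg
These matches describe letters only, and no binding was measured.

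Values are the deposited CPM (read counts scaled to library size), whose columns summed to between 0.529 M and 1.64 M. Whole reads could be recovered for every value in the table, giving 15.4 to 28.5 M reads a library (median 19.6 M). Myc itself was at 2.87 to 10.5 CPM in young KO adipose tissue against 11.2 to 22.8 in young WT, and at 1.16 to 4.04 against 5.46 to 33.7 CPM in young liver. In young muscle the Myc ranges overlapped, at 5.00 to 17.1 CPM in KO and 6.15 to 81.3 in WT. At 20 months they overlapped in adipose tissue (5.14 to 9.72 CPM in KO and 8.10 to 16.3 in WT) and in muscle (1.75 to 10.2 and 4.97 to 13.1), and not in liver (1.12 to 2.92 and 5.36 to 7.61). Each tissue carried its own markers: the summed level of 6 adipocyte genes was 6769 to 25808 CPM in adipose tissue, that of 6 hepatocyte genes was at least 102811 CPM in liver, and that of 6 fast-muscle genes was at least 126936 CPM in muscle. In adipose tissue, 4 young libraries (K5F4284, K5F5218, K5F5248 and W5F5299) also held epididymis transcripts, at a sum of 1070 to 7774 CPM. In muscle, W18S42 of old WT held hepatocyte transcripts at a sum of 2716 CPM (at most 121 in the other muscle libraries). W5S5299 of young WT muscle held epididymis transcripts at a sum of 144.8 CPM (at most 2.16 in the others). In 12 young libraries Xist was present and Y-chromosome transcripts were not, 2 in each young group of each tissue, while the 20-month libraries had none of this kind. Sex and age are therefore partly confounded in the comparisons of 20 with 5 months.

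**Figure D1:**
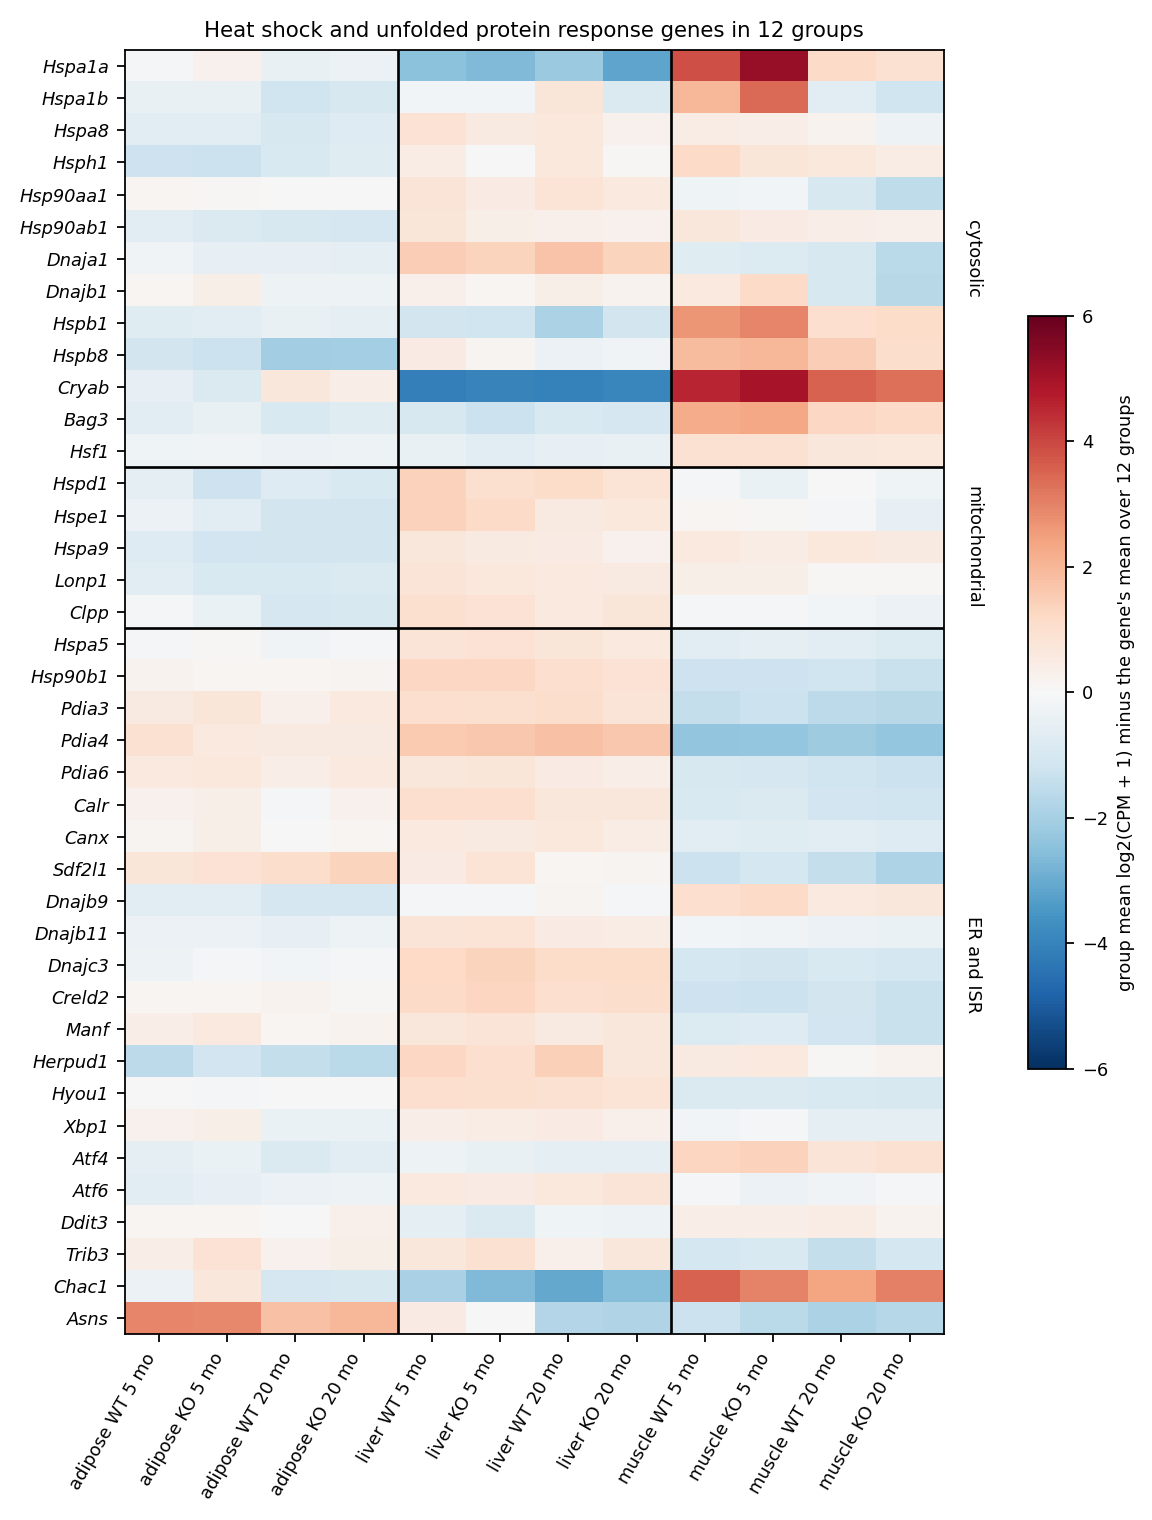
Heat map of the 40 genes (one line each, in 3 blocks for cytosolic, mitochondrial, and ER and integrated stress response genes) in the 12 groups (columns). Colour gives the group mean of log2(CPM + 1) minus the mean of that gene over the 12 groups, from blue (lower) to red (higher). Most genes keep a similar colour over the 4 columns of a tissue and change colour between tissues, while Hspa1a, Hspa1b and Dnajb1 also change between the muscle columns.

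In young WT mice the small heat shock genes Hspb1, Hspb8 and Cryab were highest in muscle, and most ER chaperones were lowest there, under both scalings tried. A limma model over all 64 libraries and 11330 genes compared the tissues, with Benjamini-Hochberg adjusted p under 0.05 as the threshold for this and each later call. It called 28 of 40 members between adipose tissue and liver, 35 between muscle and liver and 32 between muscle and adipose tissue, where 71.5%, 74.5% and 74.2% of all genes were called, so these counts say nothing particular about the members. Between muscle and liver, 11 members were higher in muscle and 24 lower, where 36.5% and 38% of all genes were called in these directions. Of the 13 cytosolic members 7 were higher and 2 lower, and of the 22 ER members 4 were higher and 18 lower. Scaling is a limit here: setting each library's column sum to the same total (column-sum scaling) instead of using the deposited scale moved the median of all genes by 1.03 for adipose tissue minus liver, by 0.22 for muscle minus liver and by -0.78 for muscle minus adipose tissue on the log2 scale.

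Cryab, the lens and muscle small heat shock protein αB-crystallin, differed most between muscle and liver. Its log2 difference was 8.66 on the deposited scale and 8.78 under column-sum scaling. Cryab ranged from 795 to 4830 CPM (median 1453) in young WT muscle, from 16.2 to 127 CPM (median 56.6) in adipose tissue and from 2.53 to 4.23 CPM (median 3.18) in liver, so the 3 tissues did not overlap. Hspb1 was higher in muscle than in liver by 3.73 and Bag3 by 3.19, and Chac1, which degrades glutathione, by 5.50, with 3.99, 3.45 and 5.63 under column-sum scaling. Among ER genes lower in muscle than in liver, Pdia4 differed by -3.95, Hsp90b1 (GRP94) by -2.48 and Pdia3 by -2.47, with -3.65, -2.21 and -2.20 under column-sum scaling. Pdia4 was at 5.55 to 14.6 CPM in young WT muscle, 85.3 to 105 in adipose tissue and 115 to 263 in liver.

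Between muscle and adipose tissue, 18 members were higher in muscle (33.8% of all genes) and 14 lower (40.4%) on the deposited scale. Under column-sum scaling the split became 13 higher (14.3% of all genes) and 21 lower (67.9%). Asns, the enzyme that makes asparagine, was lower in muscle by 4.21 (log2 difference -4.21, and -5.00 under column-sum scaling), and Atf4 was higher in muscle by 1.82 (0.95 under column-sum scaling). Between adipose tissue and liver, 5 members were higher in adipose tissue (34% of all genes) and 23 lower (37.5%). Under column-sum scaling 19 were higher (74.4% of all genes) and 6 lower (10.1%), so the shift was one of all genes. The mitochondrial genes were the block that held its direction in this pair, with 5 of 5 lower in adipose tissue on the deposited scale and 4 of 5 under column-sum scaling. Hspd1 differed by -1.94 (-0.80 under column-sum scaling), and the ER membrane protein Herpud1 by -2.80 (-1.67).

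In KO against WT mice, limma called none of the 40 genes in any tissue at either age. At 5 months limma called 0 of 40 members in adipose tissue (0.105% of 14286 genes were called), 0 in liver (0.0696% of 12924) and 0 in muscle (0% of 13237). At 20 months it called 0 of 40 in adipose tissue (0% of genes), 0 in liver (0.0232%) and 0 in muscle (0.0302%). At an unadjusted p under 0.05 there were 5, 2 and 2 members at 5 months and 0, 5 and 1 at 20 months, in the order adipose tissue, liver, muscle. Of the 14286, 12924 and 13237 genes tested, 1692, 897 and 543 were under it at 5 months. At 20 months 321, 750 and 1821 were. edgeR called 0 members in each of the 6 comparisons, and DESeq2 called 1, Hspd1 in young adipose tissue. The difference of the KO effect between the ages was called for 0 members in each tissue (0% of genes in each, with 2, 1 and 2 members at an unadjusted p under 0.05), and edgeR and DESeq2 called 0 as well. Over all genes, 407, 507 and 438 were under that unadjusted p.

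Hspd1, the Hsp60 subunit of the mitochondrial chaperonin, had the smallest adjusted p of the 40 genes in 3 of the 6 KO comparisons. In young adipose tissue it ranged from 82.2 to 135 CPM (median 119) in the 6 KO libraries and from 132 to 194 CPM (median 184) in the 6 WT libraries. 4 of 6 KO libraries lay below each WT library, and the lowest WT library, W5F5299 at 132 CPM, overlapped with the KO range. The means were 114 ± 22.5 and 178 ± 23.1 CPM (SD, n = 6 and 6), a log2 fold change of -0.65 (SE 0.144), and limma's adjusted p of 0.0943 missed the threshold. Without library W5F5299, one of the 4 with epididymis transcripts, the adjusted p was 0.0314, and without all 4 of them the log2 fold change was -0.48 with an adjusted p of 0.175. The call was also made without library K5F5116 (0.0483) and without K5F5118 (0.0432).

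In young liver Hspd1 ranged from 480 to 584 CPM (median 509) in KO and from 546 to 870 CPM (median 654) in WT, and 5 of 6 KO libraries lay below the WT range. The log2 fold change there was -0.39 (SE 0.123, adjusted p = 0.418 by limma). In young muscle the KO libraries held 171, 187, 208 and 237 CPM and the WT libraries 191 to 303 (median 242), so the ranges overlapped, with a log2 fold change of -0.30 (adjusted p = 0.9999 by limma). At 20 months Hspd1 in liver was 402, 430, 471, 503 and 508 CPM in KO and 465, 528, 578, 598 and 708 in WT, a log2 fold change of -0.30 (adjusted p = 0.818 by limma). In muscle of that age it was 198, 204, 221, 240 and 249 CPM in KO and 240, 244, 277, 279 and 310 in WT, or -0.28 (adjusted p = 0.332 by limma). Old adipose tissue overlapped most: 117, 128, 133, 134 and 189 CPM in KO against 137, 144, 156, 160 and 165 in WT, with library K18F27 above the WT range.

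**Figure D2:**
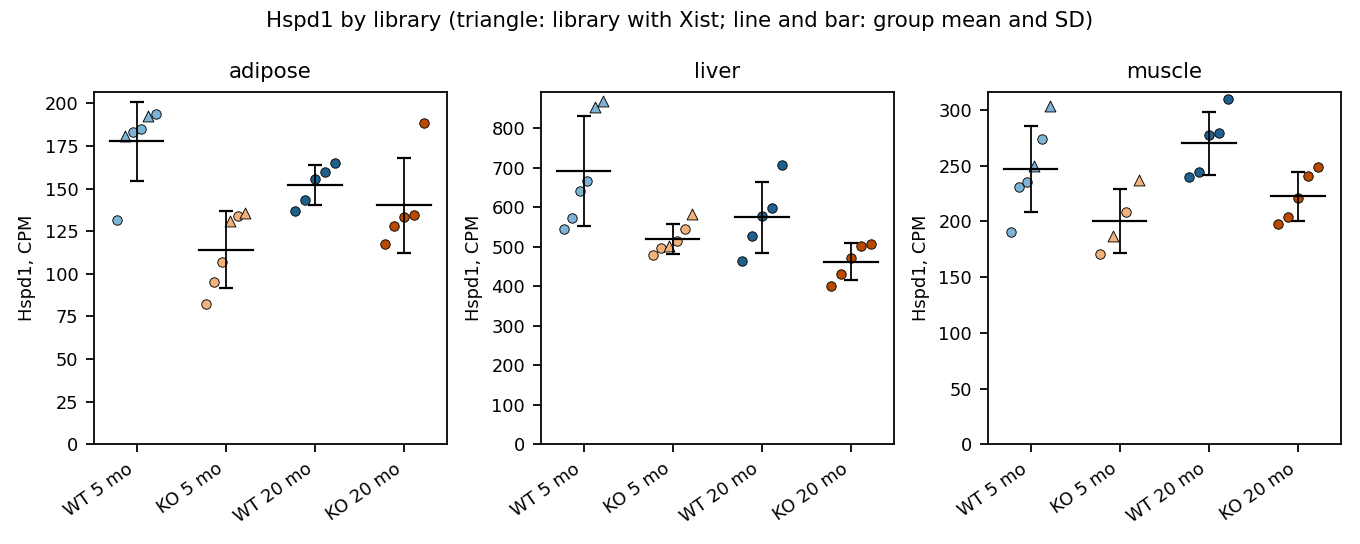
Hspd1 level (CPM, linear axis from 0) in adipose tissue, liver and muscle, with 1 point per library in WT and KO groups at 5 and 20 months. Triangles are libraries with Xist, and the line and bar give the group mean and SD. KO points sit below most WT points in young adipose tissue (82.2 to 135 against 132 to 194 CPM) and young liver (480 to 584 against 546 to 870 CPM).

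As a block, the 5 mitochondrial genes had fold changes below 0 in young KO mice in each tissue (0 of 5 positive each), with log2 medians of -0.33 for adipose tissue, -0.16 for liver and -0.07 for muscle. Medians over all genes were -0.04, 0.01 and 0.01. Over 20 alternatives in young adipose tissue, Clpp ran from -0.45 to 0.08 and Hspe1 from -0.63 to -0.06. K5F4284, K5F5218 and K5F5248 of KO and W5F5299 of WT held epididymis transcripts there. At 20 months 3, 2 and 0 of 5 were positive in adipose tissue, liver and muscle. The medians were 0.03, -0.03 and -0.19, beside 0.01, 0.01 and -0.03 over all genes. Of these 5 genes at 5 months, Hspd1 and Lonp1 reached an unadjusted p under 0.05 in adipose tissue and Hspd1 alone did so in liver and in muscle. For the ER genes, 17 of 22 fold changes were positive in young KO adipose tissue (median 0.10), 12 of 22 in liver (median 0.01) and 11 of 22 in muscle (median 0.01). The cytosolic genes were split 6, 1 and 8 of 13 positive, with medians of -0.01, -0.21 and 0.13. At 20 months 18, 7 and 8 of 22 ER genes and 8, 4 and 1 of 13 cytosolic genes were positive in adipose tissue, liver and muscle. Liver was the tissue in which most cytosolic values were lower in young KO mice: Hsp90ab1, the constitutive Hsp90, averaged 1403 CPM against 1845 (log2 fold change -0.36, adjusted p = 0.647 by limma). Other members at an unadjusted p under 0.05 were Dnaja1 (-0.30), Pdia4 (-0.30) and Herpud1 (0.39) in young adipose tissue and Hsph1 (-0.46) in young muscle. In old liver they were Hspa1a, Hspa1b, Hspa9 and Herpud1, each lower in KO. Each of these adjusted p-values was above 0.3, and these genes were picked after their values were seen.

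Few of the 40 genes were called for ageing, and in limma's fit of all libraries without a covariate each call was a fall. From 5 to 20 months limma called 0 members higher and 2 lower in WT adipose tissue, where 7.41% of 14286 genes passed upwards and 3.36% downwards. For KO adipose tissue it called 0 higher (10.5% of genes) and 1 lower (3.75%). WT liver had 0 higher (2.83%) and 1 lower (4.36%), and KO liver 0 higher (1.68%) and 0 lower (1.31%), with 5 KO liver members at an unadjusted p under 0.05 and 0 by edgeR and by DESeq2. In KO liver 2484 of 12924 genes were under that unadjusted p. WT muscle had 0 higher (10.9%) and 3 lower (7.68%), and KO muscle 0 higher (3.6%) and 2 lower (1.96%). Beside those shares of all genes, the 9 calls among the 40 members are no more than a description. DESeq2 called 5, 8, 4, 0, 7 and 5 members in the same order, each lower. Shares of all genes are not given here for DESeq2 or the alternatives that follow, so their counts only describe the members. Sex moves with age in these comparisons, since Xist libraries were young only: without them limma called 0, 3, 1, 0, 0 and 0. The 3 in KO adipose tissue were Cryab and Hsph1, both higher in old mice, and Dnajb1, lower, and the 1 in WT liver was Asns, lower. With sex as a covariate it called 1, 2, 2, 1, 3 and 0 members, of which Hsph1 in KO adipose tissue was higher and the others were lower. Cryab was also called higher in old KO adipose tissue without K5F5118 and without K5F5218.

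**Figure D3:**
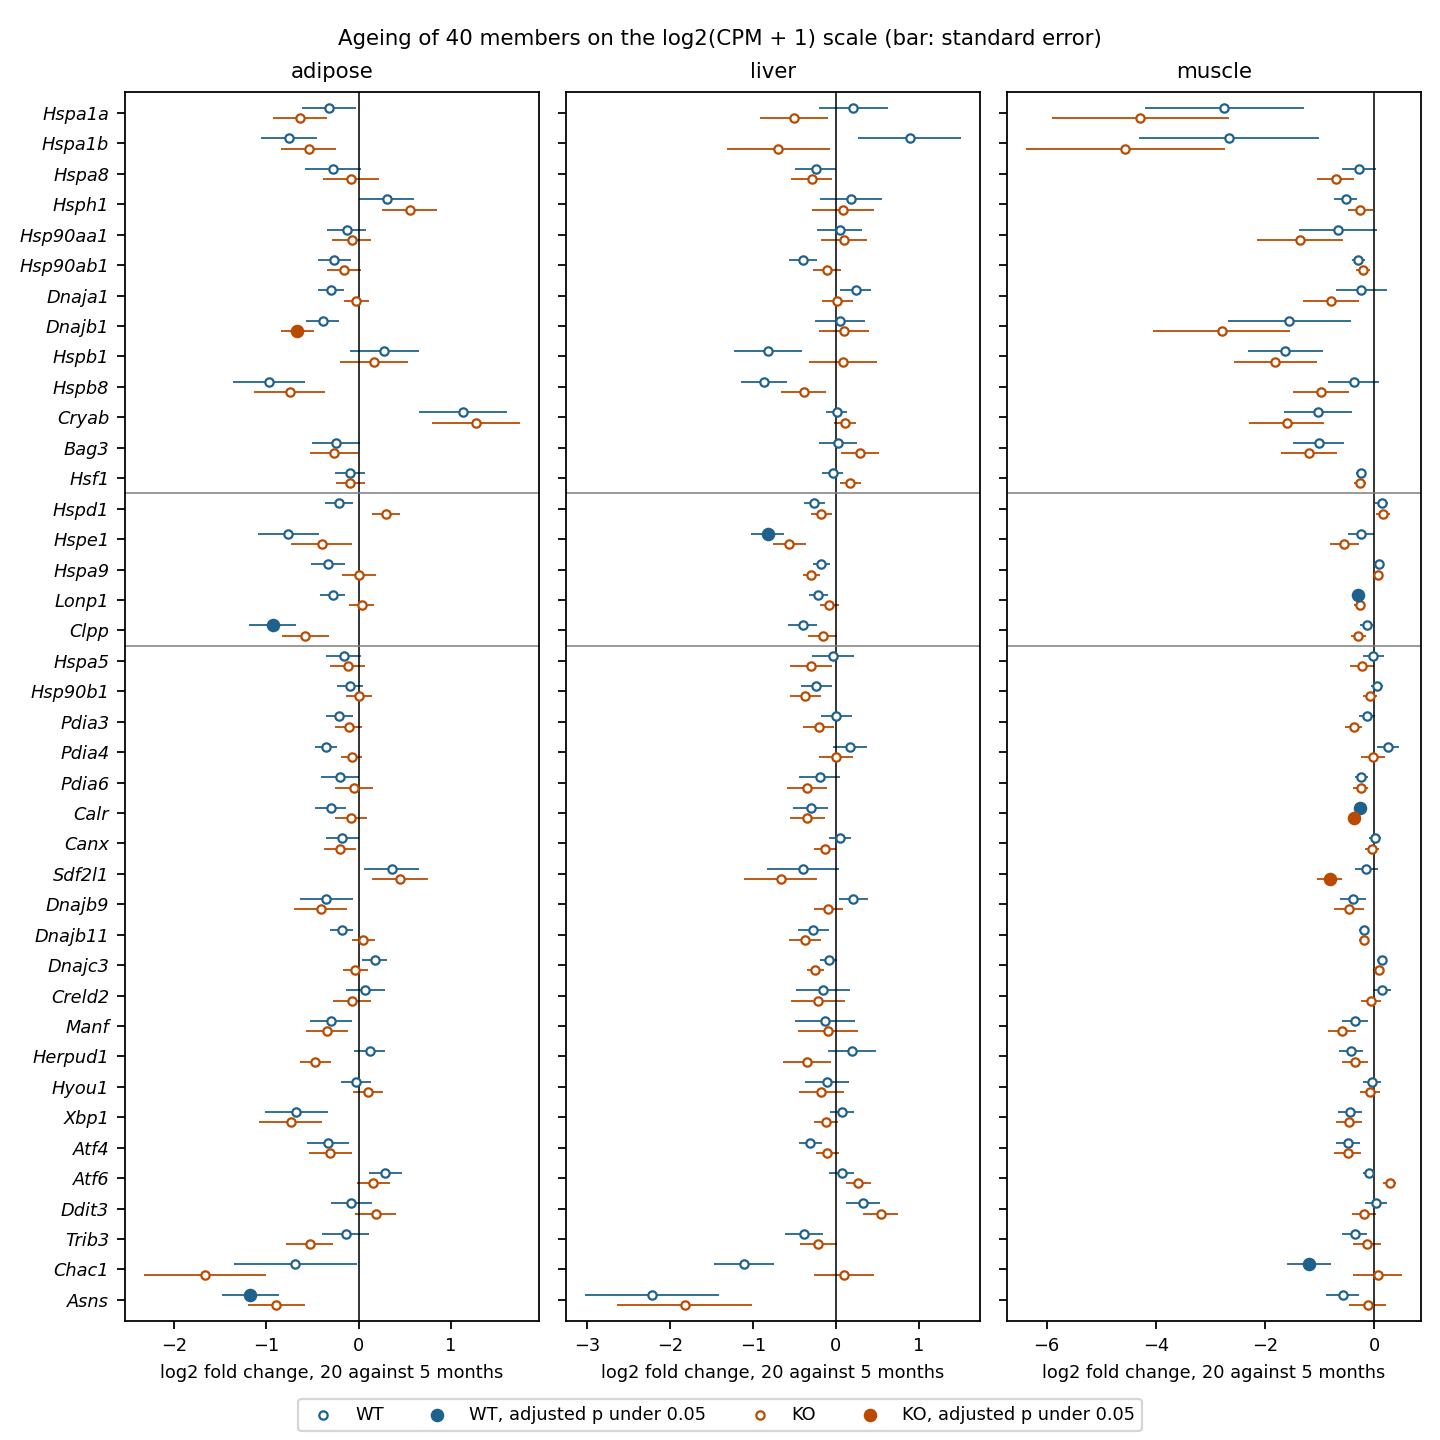
Log2 fold change of 20 against 5 months on the log2(CPM + 1) scale for the 40 genes in adipose tissue, liver and muscle, WT in blue and KO in orange, with bars for the standard error. Filled points passed an adjusted p under 0.05, and open points did not. The inducible cytosolic genes of muscle have the longest bars and lie left of 0, while the 9 filled points are spread over 8 genes.

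In WT adipose tissue Asns and Clpp, a mitochondrial protease subunit, were lower in old mice. Asns was at 26.6, 28.2, 32.1, 36.3 and 42.8 CPM in the old libraries and 58.5 to 93.5 (median 76.8) in the young ones, so the groups did not overlap. Its means were 33.2 ± 6.52 and 75.9 ± 12.4 CPM (SD, n = 5 and 6), a log2 fold change of -1.17 (SE 0.309, limma adjusted p = 0.0208). Clpp was at 14.3, 17.2, 17.4, 20.95 and 22.1 CPM in old and 28.3 to 43.8 (median 37.1) in young libraries, again without overlap, at -0.93 (SE 0.254, limma adjusted p = 0.0245). In KO adipose tissue the same genes spanned wide young ranges, 32.2 to 157 CPM for Asns and 13.3 to 51.3 for Clpp, and neither was called. The Asns call was lost without W18F22 or W18F23, and the Clpp call without W18F22, W18F23, W18F25, W5F5041 or W5F5042. Without the 4 libraries with epididymis transcripts 7 members were called lower in WT adipose tissue and 8 in KO. The share of all genes called under this setting is not given here. Hepatocyte markers summed to 477 to 4889 CPM in young adipose libraries and 109 to 1379 in old ones. Their part in these falls was not tested, and in such bulk samples fewer cells of a type and less RNA per cell cannot be told apart.

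Dnajb1, an Hsp40 partner of inducible Hsp70, was lower in old KO adipose tissue. It was at 19.1, 19.1, 20.6, 21.3 and 26.5 CPM in old and 23.4 to 53.4 CPM (median 30.7) in young KO libraries, with 4 of 5 old libraries below the young range. The log2 fold change was -0.67 (SE 0.179, limma adjusted p = 0.0199), and without K18F26, K18F29, K18F30 or K5F4284 the adjusted p passed 0.05, reaching 0.0644. WT libraries held 19.4 to 25.4 CPM when old and 23.98 to 37.1 when young, a range that overlapped and was not called.

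In WT liver the chaperonin cofactor Hspe1 was lower in old mice. Its values were 91.3, 100, 108, 126 and 133 CPM in old and 125 to 331 CPM (median 203) in young libraries, and 3 of 5 old libraries lay below the young range. The log2 fold change was -0.82 (SE 0.197, limma adjusted p = 0.0150). Leaving out single libraries kept the call in 11 of 11 cases, but without the Xist libraries the adjusted p was 0.109 and the log2 fold change -0.56. In KO liver Hspe1 ran from 93.4 to 142 CPM in old and from 125 to 230 in young libraries and was not called. The 5 mitochondrial genes had 0 of 5 positive ageing fold changes in liver of either genotype (medians -0.26 in WT and -0.17 in KO). Asns in liver varied most of the members there, from 0.102 to 47.8 CPM. Old WT livers held 0.255, 1.33, 1.67, 2.96 and 7.35 CPM and young WT livers 1.32 to 47.8 (median 25.6), where the 2 lowest young values were the Xist libraries W5L5042 and W5L5041, and limma did not call it (log2 fold change -2.21, adjusted p = 0.0932). It was called lower in 4 of 18 alternatives, namely by DESeq2, with sex as a covariate, without the Xist libraries and without W5L5042, and over the 18 its adjusted p ran from 0.0129 to 0.206.

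In muscle the ER lectin chaperone Calr was lower in old mice of both genotypes. WT libraries held 131, 135, 140, 144 and 144 CPM when old and 145 to 188 (median 165) when young, and KO libraries 119, 133, 133, 137 and 147 CPM when old and 148, 168, 185 and 193 when young, so old and young did not overlap in either genotype. The log2 fold changes were small, -0.26 (SE 0.0833, limma adjusted p = 0.0386) in WT and -0.37 (SE 0.0923, limma adjusted p = 0.0262) in KO. Lonp1, the matrix protease, was 139 ± 11.2 CPM in old and 173 ± 25.9 in young WT muscle (SD, n = 5 and 6), a log2 fold change of -0.30 (limma adjusted p = 0.0360). Its old values were 129, 132, 134, 146 and 156 CPM and its young ones 139 to 198 (median 183), with overlap. Chac1 was 38.2, 94.0, 108, 136 and 220 CPM in old and 132 to 407 CPM (median 214) in young WT muscle, at -1.19 (limma adjusted p = 0.0448). Sdf2l1, an ER cofactor, was at 0.927, 0.966, 1.37, 1.55 and 1.84 CPM in old and 2.28, 2.52, 3.59 and 4.12 CPM in young KO muscle, at -0.82 (limma adjusted p = 0.0432), a scale on which such low values understate the change. Leaving out single libraries lost the Calr call in 7 of 11 cases in WT and 5 of 9 in KO, Lonp1 in 7 of 11, Chac1 in 9 of 11 and Sdf2l1 in 9 of 9, and without the Xist libraries none of them was made.

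**Figure D4:**
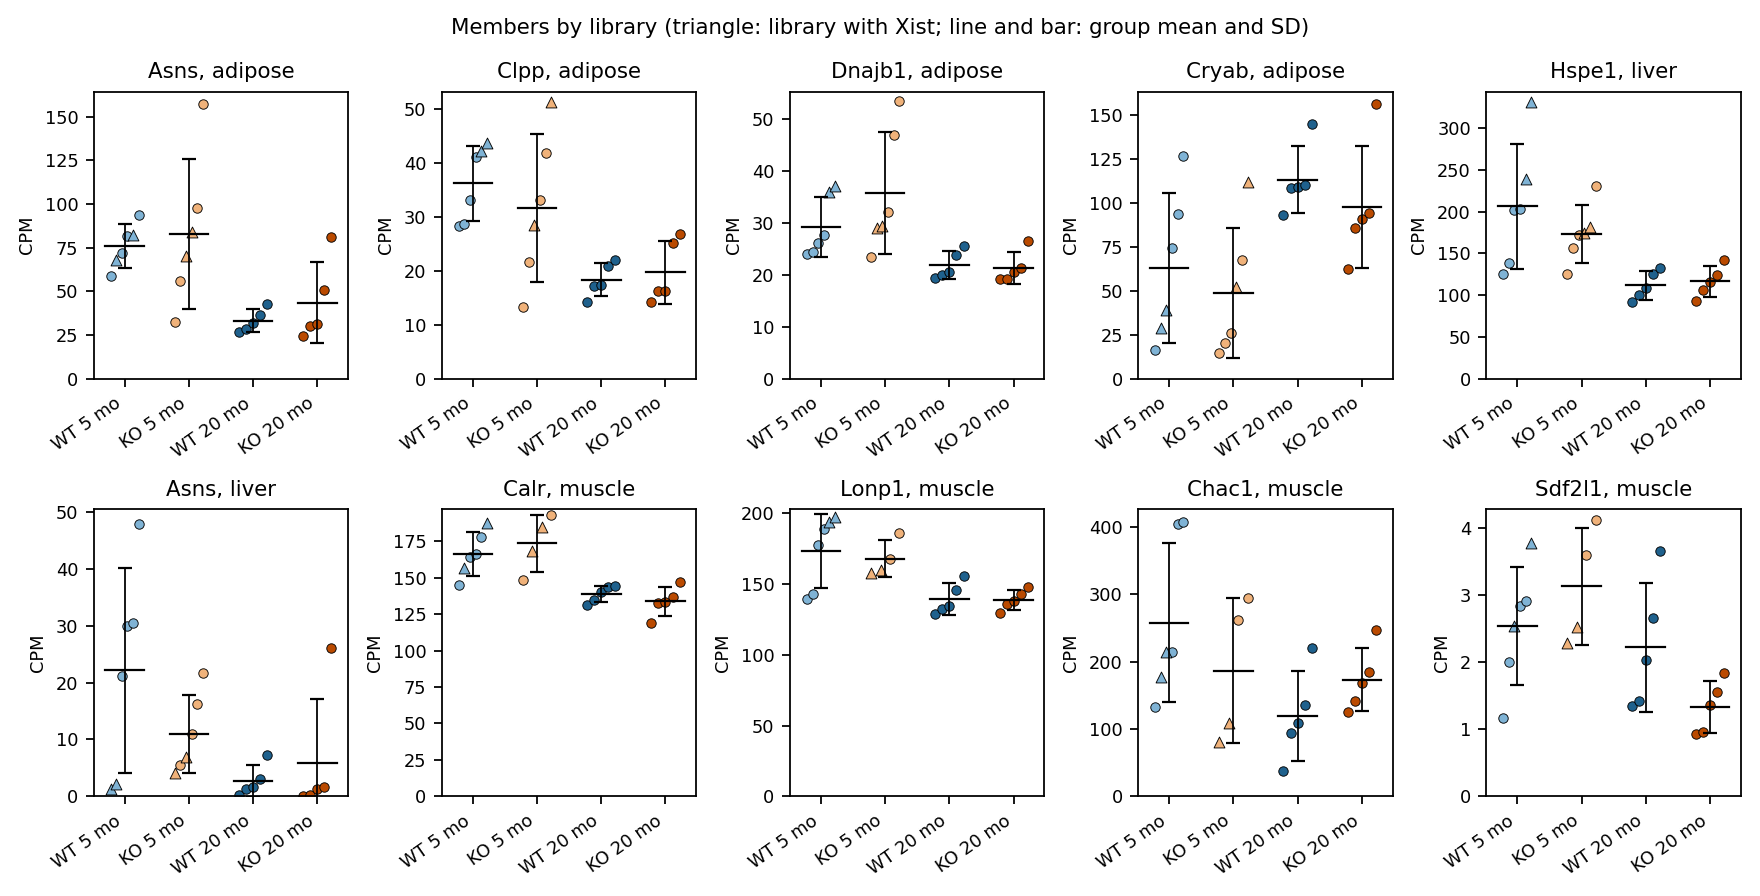
Levels (CPM, linear axes from 0) by library of the 8 called genes in the tissues where ageing calls were made (Asns, Clpp and Dnajb1 in adipose tissue, Hspe1 in liver, Calr, Lonp1, Chac1 and Sdf2l1 in muscle), with Cryab in adipose tissue and Asns in liver for comparison. Triangles are libraries with Xist, and lines and bars give group mean and SD. Asns and Clpp in WT adipose tissue and Calr in muscle show old groups that do not overlap the young ones.

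The inducible cytosolic genes of muscle varied widely between libraries of a group. Hspa1a was at 4803, 2572, 1789, 1397, 1352 and 528 CPM in 6 muscle libraries (W5S5042 and W5S5041 of young WT, K5S4284 and K5S5118 of young KO, W18S41 of old WT and K5S5116 of young KO), and at 6.36 to 92.3 CPM in the other 14. Apart from Hspa1a, which picked the libraries, the lowest of these 6 exceeded each of the other 14 for 8 of 12 cytosolic members (Hspa1b, Hspa8, Hsp90aa1, Dnajb1, Hspb1, Hspb8, Cryab and Bag3), and for 0.952% of the 13237 genes tested in muscle. Medians in the 6 against the other 14 were 1454 and 9.22 CPM for Hspa1b, 193 and 8.28 for Dnajb1, 474 and 68.2 for Hsp90aa1, 3009 and 559 for Hspb1, 3824 and 756 for Cryab, 829.4 and 241 for Bag3, and 2877 and 1342 for Hspa8, values given as a description because the 6 were picked by Hspa1a. Of the 22 ER members 0 had all of these 6 as their top libraries, but 5 had 5 of them (Hspa5, Pdia3, Manf, Xbp1 and Atf4), where 4.5% of all genes had 5 or 6. Of the 5 mitochondrial members 0 had 5 or 6. Hsf1, the activator's own transcript, shared 2 of the 6 and stayed between 39.2 and 62.6 CPM over all 20 muscle libraries.

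Immediate early genes, which respond within minutes to handling and other stimuli, were high in the same libraries. Their 16 transcripts summed to 1147 to 3881 CPM in the 6 libraries and 432 to 1072 CPM in the other 14, and 4 of the 16 (Fos, Fosl1, Jun and Egr1) had the same top 6, as did the 0.952% of all genes given above. All 4 muscle libraries with Xist were among the 6. The part of handling or of sex in these levels was not tested.

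**Figure D5:**
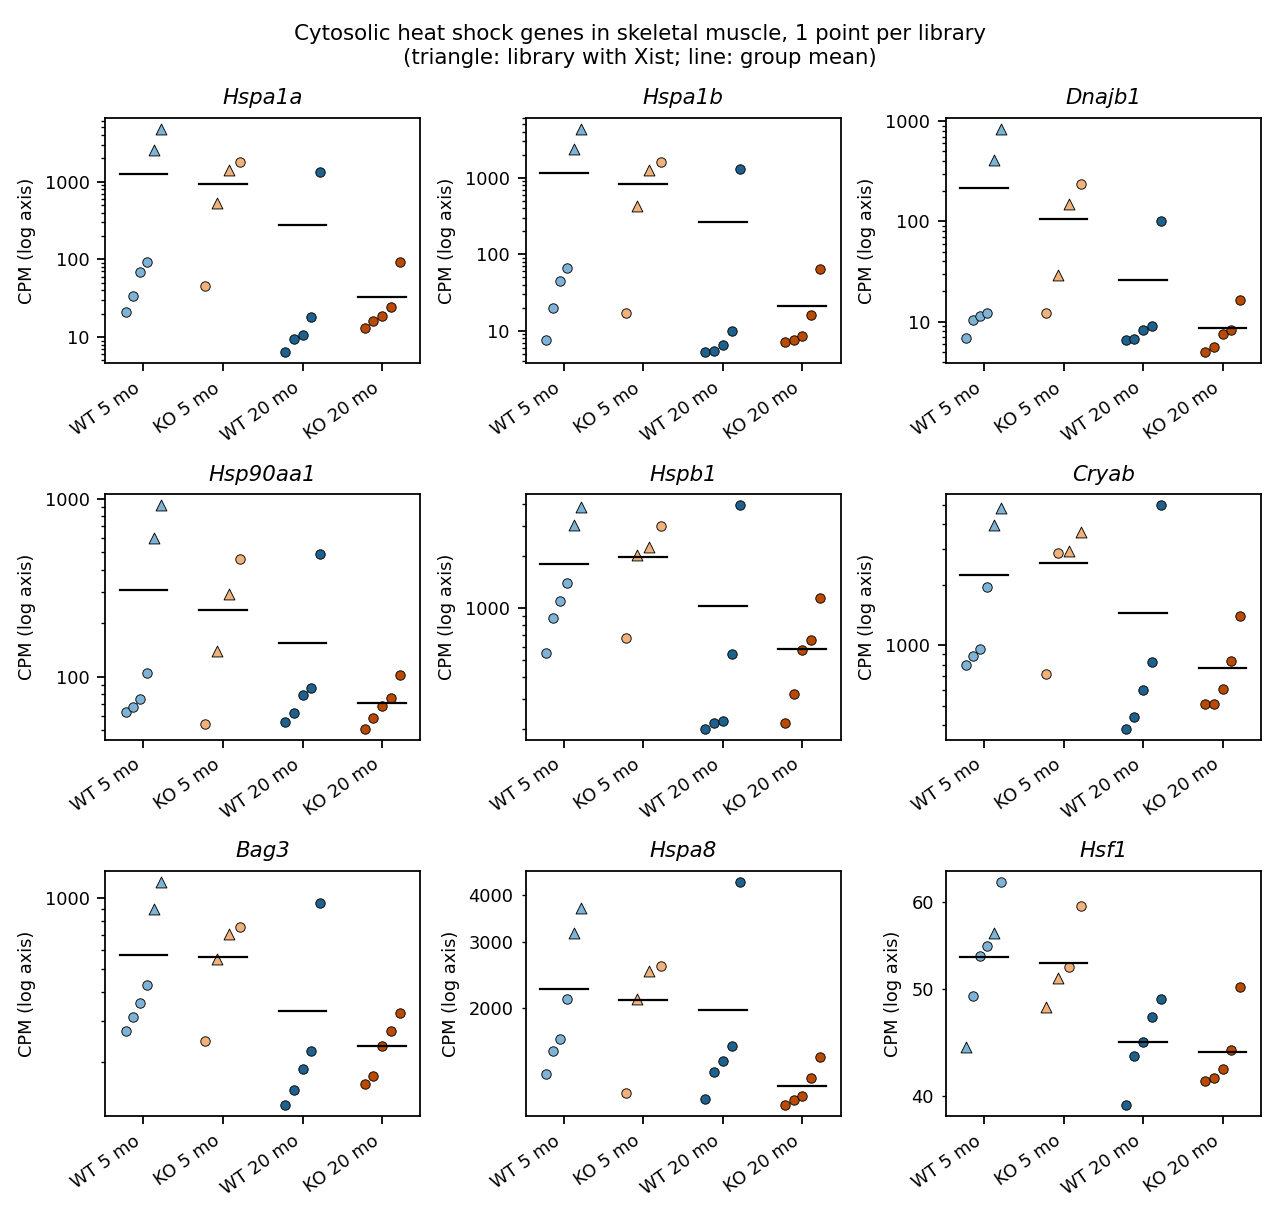
Levels (CPM, log axes) of 9 cytosolic genes in the 20 muscle libraries, 1 point each, in WT and KO groups at 5 and 20 months. Triangles are libraries with Xist, and lines are group means. For each gene but Hsf1, 2 young WT, 3 young KO and 1 old WT library stand above the remaining points, whereas Hsf1 stays between 39.2 and 62.6 CPM.

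With these libraries in the comparison, limma called none of the cytosolic genes for ageing in muscle. 0 of 13 fold changes were positive in WT (median -0.66) and 0 of 13 in KO (median -1.20), beside medians of 0.03 and -0.02 over all genes. At an unadjusted p under 0.05 there were 5 in WT and 7 in KO, where 4654 and 3386 of all 13237 genes were. Hspa1a held 6.36, 9.54, 10.6, 18.2 and 1352 CPM in old WT muscle and 21.1 to 4803 CPM (median 81.0) in young, with 4 of 5 old libraries below the young range, at a log2 fold change of -2.74 (SE 1.46, limma adjusted p = 0.189). In KO it was 12.9, 16.1, 18.7, 24.3 and 92.1 CPM when old and 45.8, 528, 1397 and 1789 when young, at -4.29 (SE 1.62, limma adjusted p = 0.112). Without W18S41, 10 members were called lower in ageing WT muscle (Calr, Cryab, Hsph1, Hspb1, Hsp90ab1, Xbp1, Bag3, Pdia6, Lonp1 and Hspa1a). Without the Xist libraries 0 were. Shares of all genes called under these settings are not given here. The Hspa1a log2 fold change ran from -4.12 to -0.67 over the 18 alternatives in WT and from -5.42 to -2.17 over the 16 in KO.

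Within-group spread puts the Hsp70 pair among the most variable genes of muscle and, to a smaller extent, of liver. The residual SD of log2(CPM + 1) in muscle was 3.02 for Hspa1b, the largest of all 13237 genes tested there, 2.69 for Hspa1a, which 3 genes exceeded, and 2.06 for Dnajb1, which 13 exceeded. The median over all genes was 0.264. In liver it was 1.13 for Hspa1b (7.10 to 332 CPM), which 135 of 12924 genes exceeded, and 0.737 for Hspa1a (0.0729 to 9.73 CPM), which 470 exceeded, beside a median of 0.288. Such spread was not particular to the pair in liver, where the residual SD was 1.48 for Asns, 0.785 for Sdf2l1 and 0.736 for Hspb1. In adipose tissue it was 0.508 for Hspa1a (5.50 to 27.9 CPM) and 0.529 for Hspa1b (10.4 to 51.7 CPM), beside a median of 0.359.

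The ageing change of Cryab differed between muscle and adipose tissue by limma's test of the difference. Cryab was also high in the 6 muscle libraries picked by Hspa1a (2887 to 4974 CPM, against 384 to 1950 in the other 14). All of these 6 but W18S41 were young, and their part in the difference was not tested. Old adipose libraries held 93.2, 108, 109, 110 and 145 CPM in WT and 62.5, 85.6, 90.7, 93.9 and 156 in KO, against young ranges of 16.2 to 127 and 14.5 to 112 CPM, while in muscle Cryab was 384, 438, 599, 825 and 4974 CPM in old WT and 795 to 4830 in young WT. The difference of the ageing effects, muscle minus adipose tissue, was -2.16 (SE 0.670, limma adjusted p = 0.0214) in WT and -2.88 (SE 0.707, limma adjusted p = 0.00705) in KO on the log2 scale. Without the Xist libraries the WT difference was -1.20 with an adjusted p of 0.243, whereas the KO difference was called under each of the 4 alternatives. That alternative left only K5S4284, which is among these 6, and K5S4285 in young KO muscle. Clpp was the other member called in this pair, at 0.80 (SE 0.280, limma adjusted p = 0.0415) in WT, with an ageing fold change of -0.93 in adipose tissue and -0.13 in muscle (adjusted p = 0.0824 for the difference without the Xist libraries). These are 2 of 40 members where 16.4% of 11330 genes were called in WT, and 1 of 40 where 7.93% were in KO.

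Other tissue pairs gave no call. For WT ageing limma called 0 members between adipose tissue and liver (4.01% of genes, 2 members at an unadjusted p under 0.05) and 0 between muscle and liver (3.1%, 5 members). Over all 11330 genes, 2222 and 2088 were under that unadjusted p. For KO ageing limma called 0 in these pairs (11.3% with 4 members, and 1.32% with 9, beside 2935 and 1633 of all genes at that unadjusted p). For the KO effect at 5 months 0 were called in the pairs adipose-liver, muscle-liver and muscle-adipose (0.124%, 0% and 0% of genes, with 1, 0 and 1 members at an unadjusted p under 0.05). Over all genes, 1126, 241 and 845 were under that unadjusted p. At 20 months 0 were called likewise (0%, 0.0177% and 0%, with 1, 1 and 0 members).

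Transcripts of the ER regulators Atf6, Xbp1 and Atf4 and of BiP were called in none of the 12 comparisons of genotype and age. Hspa5, the ER Hsp70 whose rise is the usual sign of an unfolded protein response, had log2 fold changes between -0.29 and 0.16 in these comparisons. Group means of Hspa5 were 309 to 389 CPM (adipose tissue), 542 to 673 CPM (liver) and 206 to 247 CPM (muscle), and the highest library was W5L5042 of young WT liver at 1345 CPM, where the others of that group held 445 to 610. Atf6 ran from -0.21 (muscle, KO against WT at 5 months) to 0.29 (adipose tissue, ageing in WT). Atf4 had its lowest log2 fold changes in ageing muscle, -0.49 in WT (limma adjusted p = 0.118) and -0.49 in KO (limma adjusted p = 0.208). WT muscle held 276.6 ± 58.1 CPM of Atf4 when old and 400.4 ± 129 when young (SD, n = 5 and 6). Xbp1 was lower with age in adipose tissue by -0.68 in WT and -0.74 in KO (limma adjusted p = 0.181 and 0.139). Old WT adipose libraries held 114, 116, 131, 133 and 148 CPM of Xbp1 and young ones 121 to 367 (median 195), which overlapped. These values are of whole transcripts, and neither Xbp1 splicing nor translation of Atf4 was measured. Hsf1 had log2 fold changes of -0.25 (WT) and -0.26 (KO) with age in muscle (limma adjusted p = 0.0649 and 0.123), where 4 of 5 old KO libraries lay below the young KO range of 48.1 to 59.4 CPM.

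Wider lists of the same pathways, 53 cytosolic chaperones, 16 mitochondrial quality control genes, 40 ER genes and 26 integrated stress response genes, held no gene called for KO against WT in any tissue or age by limma. For these lists no alternatives are given, such as leaving out the young libraries with Xist or with epididymis transcripts. Their ageing calls below rest on the main fit alone. In ageing adipose tissue the ER list had 4 of 40 higher and 1 lower in WT and 7 higher and 0 lower in KO, where 7.41% of all genes were higher and 3.36% lower in WT and 10.5% and 3.75% in KO. Edem1, which draws misfolded glycoproteins out for degradation, was 150 CPM in old against 85.8 in young WT (log2 fold change 0.84, limma adjusted p = 0.00266) and 100.4 against 55.8 in KO (0.84). Ero1b, an ER oxidase, rose by 0.66 in WT and 0.75 in KO. Hspa4l, an Hsp110 family member, rose by 1.24 in WT and 0.86 in KO, while Bag4 (-0.77 and -0.64) and the mitochondrial import motor subunit Timm44 (-0.59 and -0.56) were lower in both. Phb2, a mitochondrial inner membrane scaffold, was lower in WT (-0.67). Of the stress response list Vldlr rose in WT (0.96) and KO (0.90), and Atf3 rose in KO (1.78) where Cth (-1.71) and Ddit4 (-1.78) were lower.

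In ageing WT liver limma called 0 of 49 tested cytosolic genes higher and 5 lower. Mitochondrial genes had 0 and 1 of 16, ER genes 0 and 2 of 40 and stress response genes 2 and 2 of 22. Of all genes, 2.83% were higher and 4.36% lower. In ageing KO liver the lists had 0 and 2, 0 and 1, 0 and 2, and 0 and 0 in that order. Of all genes there, 1.68% were higher and 1.31% lower. The ER lectin Os9 was 239 against 416 CPM in WT (-0.80, limma adjusted p = 0.00265) and 246 against 398 in KO (-0.66). Grpel1, the nucleotide exchange factor of mortalin, was lower by -0.49 in WT and -0.57 in KO, and the chaperonin subunit Cct6a by -0.42 and -0.40. Gdf15, a secreted stress hormone, rose in WT (1.36), and the glucocorticoid-inducible Fkbp5 was lower (-1.92). In muscle, Ddit4 was 18.3 ± 5.57 CPM in old and 483 ± 391 in young WT libraries (-3.90, limma adjusted p = 0.00723) together with Cebpb (-1.55) and Slc3a2 (-0.79), and 6 of 16 immediate early genes were lower in old WT muscle (7.68% of all genes were), with Zfp36 at -2.05 and Ier2 at -1.17 among them. The muscle ER list had 3 of 38 tested genes higher and 7 lower in WT, beside 10.9% and 7.68% of all genes. Edem3 rose in WT (0.53) and KO (0.56), and Dnajb14 rose in WT (0.69) and KO (0.68), while the myosin chaperone Unc45a was lower in both (-0.53 and -0.61).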

How the data were processed

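Poly(A)-selected RNA libraries of 64 tissue samples were sequenced after a strand-specific preparation, per the labels' protocols. The deposited table gives CPM for 36333 lines (2 of them share 1 identifier and were summed) on genome build GRCm38.p6 (mm10), per the submitters' processing notes. The aligner and counting settings are not given in the sources used here. Because its columns have unlike sums, the values were treated as a normalised signal scaled by the authors. Each deposited value was a whole multiple of what 1 read was worth in its library (100% of values, tolerance 0.02 reads), which gave back whole reads for edgeR 4.0.16 and DESeq2 1.42.0 as alternatives.

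Gene identifiers were matched to symbols through RefSeq (35336 matched, 996 did not). Genes were tested if their value exceeded 1 CPM in enough libraries to fill the smallest group of that tissue, using limma 3.58.1 in R 4.3.3 on log2(CPM + 1), with intensity trend, 4 group means per tissue and Benjamini-Hochberg adjustment over all genes tested. 12 group means over all libraries served for comparisons between tissues. Standard errors are limma's, and SD is over libraries. Values by library were given for called members (at most 10 per comparison by adjusted p) and for Hsf1, Hspa1a, Hspa5, Xbp1, Atf4 and Atf6. From wider lists at most 3 genes per direction and comparison were eligible, and Hspd1 and the members at unadjusted p under 0.05 were added after their values were seen. The 40 genes and the wider lists were chosen with earlier results of these data known. The fit was tested on simulated data. Alternatives were a pseudocount of 0.1, no filter, other scaling and tests, sex as a covariate, and leaving out libraries. Counts of reads limit precision only for low genes such as Hspa1a in liver.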

Additional observations from a re-analysis of the deposited data

Results flagged for a closer look

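Within groups of 4 to 6 libraries, the single highest or lowest value of Hsf1, Hspa1a, Hspa5, Xbp1, Atf4, Atf6 and Hspd1 in the 12 groups, and of called genes in the groups compared, was set against Dixon's 95% criterion. It stood apart in 13 of 102 pairs of a gene and a group. The values were CPM on the linear scale and many pairs shared libraries, so this count cannot be set against a rate expected by chance.

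Library W18S41 of old WT muscle accounted for 4 of these, with Hspa1a at 1352 CPM (next 18.2), Hspa5 at 332.6 (next 222.3), Xbp1 at 185.7 (next 107.6) and Atf4 at 377.2 (next 269.5). In other muscle groups, K18S48 (old KO) held Hspa1a at 92.1 CPM (next 24.3), and the lowest Hspa5 values were 174.5 CPM in K18S64 (old KO) (next 210.5) and 150.0 in K5S4285 (young KO) (next 272.3). In liver, Hspa1a was at 9.73 CPM in W18L04 (old WT) (next 2.60) and 4.36 in W5L5277 (young WT) (next 1.83), and Hspa5 at 1345 CPM in W5L5042 (young WT) (next 610.1). In adipose tissue, Hsf1 was at 34.7 CPM in K5F5118 (young KO) (next 23.7), Hspd1 at 188.7 in K18F27 (old KO) (next 134.4), and Hspd1 was lowest, at 131.7, in W5F5299 (young WT) (next 181.0).

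Ageing effects differed between muscle and adipose tissue by limma's test of the difference for Cryab in WT (-2.16 on the log2 scale) and in KO (-2.88) and for Clpp in WT (0.80). Causes of these patterns were not tested.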

How the results depend on the processing

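Direction was stable for the 18 member results traced here (the 9 calls, Hspd1 in 6 comparisons and 3 differences between tissues). Over 274 alternative values 0 reversed, 198 stayed on their side of the threshold, 69 lost the call and 7 gained it. Hspd1 was not called in its 6 comparisons, so all 69 losses fell on the 9 calls and 3 differences. The 198 include values of Hspd1 that stayed uncalled, and so overstate how often calls were kept. Of 388 alternative counts over 30 results, 318 stayed within 1.5 times. Counts of 0 that stayed at 0 are among these, and most of the 30 results had a count of 0. The 318 therefore do not measure how stable the ageing counts were. The counts of members below are given without the share of all genes called under the same setting.

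For KO against WT in young adipose tissue, 1 member (Hspd1) was called under column-sum scaling, by DESeq2, with sex as a covariate and without the Xist libraries, and 0 to 1 with single libraries left out. Ageing calls in WT adipose tissue (2) became 5 by DESeq2, 1 with the sex covariate, 0 without the Xist libraries and 7 without the libraries with epididymis transcripts, and 0 to 2 with single libraries left out. In KO adipose tissue the 1 call became 2 under column-sum scaling, 5 by edgeR, 8 by DESeq2, 2 with the sex covariate (Hsph1 higher, Dnajb1 lower), 3 without Xist libraries (Cryab and Hsph1 higher, Dnajb1 lower) and 8 without epididymis transcripts, and 0 to 7 with single libraries left out (7 without K5F5218, of which Cryab was higher). WT liver (1) had 2 by edgeR, 4 by DESeq2 and 2 with the sex covariate, and 1 to 3 with single libraries left out, and KO liver (0) had 1 with the sex covariate. WT muscle (3) had 1 without the filter, 1 under column-sum scaling, 5 by edgeR, 7 by DESeq2 and 0 without Xist libraries, and 0 to 10 with single libraries left out (10 without W18S41, 8 without W5S5277). KO muscle (2) had 1 without the filter, 1 under column-sum scaling, 5 by DESeq2, 0 with the sex covariate and 0 without Xist libraries, and 0 to 1 with single libraries left out. Without Xist libraries the differences of ageing effects gave 1 call in WT for muscle against liver, 0 in WT for muscle against adipose tissue, 2 in KO for adipose tissue against liver and 2 in KO for muscle against adipose tissue. The cause of each change was not tested, beyond the smaller number of libraries.

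With the number in the library code as a replicate block, 28, 36 and 32 members were called between young WT tissues (28, 35 and 32 without it), and 2 and 1 differences of ageing effects were called as before. Same-numbered libraries of different tissues correlated in their deviations by a median r of 0.156 (-0.239 to 0.400 over 28 pairs), with r above 0.1 in 20 of them, and 25 of 56 correlated best with their own number. The libraries with Xist bear the same 4 numbers in each tissue. Because r was not above 0.1 in every pair and the labels do not say what a number marks, no pairing was assumed, and whether these libraries share animals is not settled here. Column-sum scaling moved the median ageing change of all genes by 0.19 (WT) and 0.18 (KO) in liver and 0.12 (KO) in muscle, and DESeq2 by -0.13 in KO adipose tissue. Depth limits Hspa1a in liver, where the lowest library held 0.0729 CPM.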
